A study of Mus musculus with 4 samples.

Results

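The immunoglobulin variable segments described here are the gene rows whose symbols begin with Ighv (heavy chain), Igkv (kappa light chain) or Iglv (lambda light chain) and whose read counts added over the 4 libraries reached 20. Of 55450 genes counted, 348 were variable segments, and 168 of these met the minimum: 84 of 185 Ighv rows, 81 of 160 Igkv rows and all 3 Iglv rows. The remaining rows comprised 126 with 0 reads and 54 with 1 to 19 reads. The rule used the reads themselves, so that a segment was read in these wells is a description and not a finding. Just inside the minimum were Igkv11-125 with 20 reads and Ighv1-36 with 21, and just outside it were Ighv1-57 and Ighv8-2 with 19 each.

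Each B cell joins 1 variable segment to a joining segment (and, in the heavy chain, a diversity segment in between) in the DNA of each chain it expresses, and the joined exon is spliced to a constant region in the messenger RNA. The segment is therefore a partial label of the cell's clone, since cells of different clones can share a segment. Plasma cells hold far more immunoglobulin messenger RNA than resting B cells, so a few of them can supply much of the variable-segment RNA of a mixed sample. In the mouse the kappa locus supplies most light chains and the lambda locus has few variable segments.

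The libraries came from mesenteric lymph nodes (MLN) of wild-type C57BL/6J mice. Nodes were pooled 2 to a sample, CD11c+ cells (a surface integrin carried by dendritic cells and by some other leukocytes) were enriched on magnetic beads, and the roughly 90000 cells of each pool were divided into 2 wells. One well of each pool was cultured for 6 h with water and the other with an agonist of Ffar2, a receptor for short-chain fatty acids, at 10 µM, in RPMI medium with serum. The labels number the wells 2 and 3, which gives control 2, control 3, agonist 2 and agonist 3. They do not state outright that same-numbered wells came from the same pool. Wells of the same number are taken as such and called pool 2 and pool 3 below. The name of the agonist and the age and sex of the mice were not given in the sources used here. RNA was amplified from full-length transcripts with the SMART-seq v4 kit.

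The libraries held 43238375 to 59902172 reads assigned to genes. Xist, the X-inactivation RNA, had 17776 reads in control 2, 0 in control 3, 21194 in agonist 2 and 0 in agonist 3. The Y-linked Ddx3y had 0, 18752, 0 and 21461 reads in the same order. Same-numbered wells therefore matched each other and pools 2 and 3 differed in sex-linked RNA, so sex, animals and pool cannot be told apart. Dendritic cell markers (14 genes, among them Itgax, Flt3 and H2-Ab1) summed to 28569 to 33186 CPM (read counts per megaread of the library size scaled by edgeR's TMM factors), against 601 to 1057 CPM for 14 B cell markers and 460 to 510 CPM for 14 plasma cell markers. The wells thus held B-lineage RNA as a small admixture, and the variable segments describe that admixture rather than the CD11c+ cells as a whole. In bulk RNA fewer cells of a type and less RNA per cell cannot be told apart.

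The germline sequences of the 6 segments that took the largest share of their locus in any 1 well are shown so that the segments leading the results below can be compared. Each line gives the last 300 bases of the exon that codes for the variable domain, in GRCm38 with GENCODE M21 models, written in the sense of the gene. All 6 lie on the minus strand: Iglv2 at chr16:19260401-19260700, Iglv3 at chr16:19241207-19241506, Iglv1 at chr16:19085017-19085316, Ighv5-9-1 at chr12:113736111-113736410, Igkv8-27 at chr6:70171809-70172108 and Ighv6-3 at chr12:114391712-114392011. Capitals mark the last match of TATNNNTGT, allowing C in place of T at the third and ninth letters, in the sense strand; it reads as tyrosine, any residue and the conserved cysteine ahead of the third hypervariable loop. The motif was found in 166 of 168 members (98.8%) and in 311 of 376 annotated variable-segment models (82.7%).
Iglv2: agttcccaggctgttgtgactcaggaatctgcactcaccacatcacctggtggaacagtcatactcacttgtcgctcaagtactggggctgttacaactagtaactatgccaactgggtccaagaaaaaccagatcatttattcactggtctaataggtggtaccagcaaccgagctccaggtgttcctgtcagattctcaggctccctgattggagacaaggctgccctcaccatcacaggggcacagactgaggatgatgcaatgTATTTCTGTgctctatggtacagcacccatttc
Iglv3: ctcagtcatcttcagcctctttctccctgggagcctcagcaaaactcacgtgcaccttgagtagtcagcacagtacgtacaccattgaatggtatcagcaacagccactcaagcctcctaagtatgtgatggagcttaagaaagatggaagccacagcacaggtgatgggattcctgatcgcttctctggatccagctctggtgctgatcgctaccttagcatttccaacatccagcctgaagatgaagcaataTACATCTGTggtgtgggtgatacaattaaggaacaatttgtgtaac
Iglv1: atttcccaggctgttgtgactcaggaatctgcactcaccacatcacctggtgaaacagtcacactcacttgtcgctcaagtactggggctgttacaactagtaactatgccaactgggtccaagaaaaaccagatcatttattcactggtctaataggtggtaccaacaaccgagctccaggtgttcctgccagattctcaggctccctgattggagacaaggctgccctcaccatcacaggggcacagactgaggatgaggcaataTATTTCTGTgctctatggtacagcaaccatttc
Ighv5-9-1: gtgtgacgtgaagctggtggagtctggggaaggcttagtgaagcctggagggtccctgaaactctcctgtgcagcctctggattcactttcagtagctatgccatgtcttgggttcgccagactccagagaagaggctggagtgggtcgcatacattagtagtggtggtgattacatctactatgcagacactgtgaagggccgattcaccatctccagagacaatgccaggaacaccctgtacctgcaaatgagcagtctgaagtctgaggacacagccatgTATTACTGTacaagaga
Igkv8-27: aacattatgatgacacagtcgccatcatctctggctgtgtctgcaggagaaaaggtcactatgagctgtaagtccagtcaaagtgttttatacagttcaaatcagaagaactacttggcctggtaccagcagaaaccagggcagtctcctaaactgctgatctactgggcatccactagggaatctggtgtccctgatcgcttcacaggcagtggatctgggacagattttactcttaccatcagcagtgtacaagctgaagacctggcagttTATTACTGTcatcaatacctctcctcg
Ighv6-3: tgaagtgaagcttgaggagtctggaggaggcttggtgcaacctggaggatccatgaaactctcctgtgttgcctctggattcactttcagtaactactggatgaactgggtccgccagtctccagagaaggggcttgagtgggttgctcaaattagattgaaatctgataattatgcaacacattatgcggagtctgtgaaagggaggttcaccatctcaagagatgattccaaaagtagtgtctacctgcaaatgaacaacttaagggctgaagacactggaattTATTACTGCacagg

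Over the whole exons, Iglv2 and Iglv1 shared 96.4% of their bases, with 11 edits between them and a longest identical run of 104 bases, whereas Iglv3 was 55.2% identical to Iglv2. Ighv5-9-1 and Ighv6-3 were 74.2% identical. Over the 168 members the median identity of an exon to its nearest other variable exon was 94.4%. In 10 members it was 98% or more, and these held 3.50% of the members' reads; the pair Ighv1-62-2 and Ighv1-71 was 100% identical. Reads of such near-identical segments are uncertain, because the counting may have dropped them or assigned them to the wrong segment.

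In the heavy chain locus a different segment led each well. Ighv5-9-1 led control 2 with 33.9% of the locus's reads (95% Wilson interval 33.1 to 34.8), Ighv7-3 led control 3 with 18.3% (17.4 to 19.2), Ighv6-3 led agonist 2 with 21.6% (20.6 to 22.6) and Ighv1-37 led agonist 3 with 11.4%. The intervals cover counting error only, since amplified reads without molecular identifiers are not independent molecules. Ighv5-9-1 had 4098 reads in control 2 and 19, 43 and 24 in control 3, agonist 2 and agonist 3. Ighv7-3 had 127, 1367, 198 and 102 reads in control 2, control 3, agonist 2 and agonist 3. Ighv1-37 had 0, 1, 4 and 433 reads in the same order, so nearly all of it came from agonist 3; its exon is 98.7% identical to that of Ighv1-20, which makes its reads uncertain. Each of the 3 segments was therefore high in its own well and low in the well of the same pool that received the other treatment. Ighv6-3 was the exception, with 803 reads in control 2 and 1490 in agonist 2 against 75 in control 3 and 188 in agonist 3; both wells of pool 2 were above both of pool 3.

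The kappa locus showed the same kind of turnover. Igkv8-27 led control 2 with 28.2% of kappa reads (27.3 to 29.1), Igkv7-33 led control 3 with 9.22% (8.59 to 9.90), Igkv1-117 led agonist 2 with 9.20% (8.43 to 10.0) and Igkv8-30 led agonist 3 with 18.8% (17.7 to 20.02). Igkv8-27 had 2854, 490, 99 and 54 reads in control 2, control 3, agonist 2 and agonist 3, so both controls were above both agonist wells. Igkv4-68, second in control 2 with 18.1%, had 1836, 26, 15 and 22 reads. Igkv7-33 had 16, 686, 18 and 24, and Igkv8-30 had 26, 35, 32 and 838. These 3 were high in a single well. Igkv1-117 was less uneven, with 187, 383, 460 and 97 reads.

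**Figure D1:**
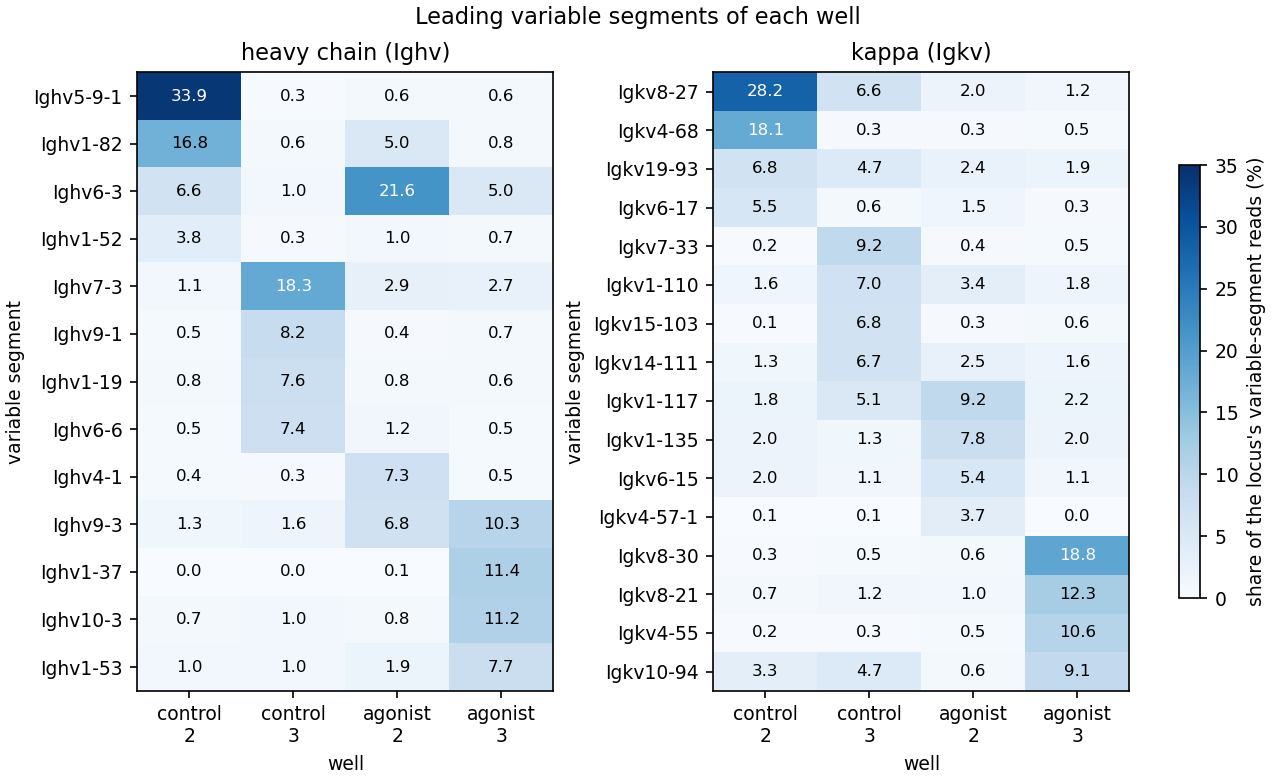
Heat maps of the share of the locus's variable-segment reads (%, colour scale and printed values) for the 4 leading heavy chain (left) and kappa (right) segments of each well, with wells as columns. Most dark cells stand alone in their row: Ighv5-9-1 took 33.9% in control 2 and Igkv8-30 took 18.8% in agonist 3, while Ighv6-3 was high in both wells of pool 2.

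The lambda locus, with 3 segments, was more alike between wells. Iglv2 took 56.8%, 55.5%, 44.6% and 26.8% of lambda reads in control 2, control 3, agonist 2 and agonist 3; Iglv3 took 26.5%, 33.0%, 27.0% and 37.8%; and Iglv1 took 16.7%, 11.5%, 28.4% and 35.4%. Iglv2 was thus the leading lambda segment in all wells but agonist 3, and its share was lower, and that of Iglv1 higher, in both agonist wells than in either control. In reads, Iglv1 had 502 and 466 in the controls and 1149 and 1016 in the agonist wells. With agonist its log2 fold change stood at 0.97 (SE 0.34), with an unadjusted p of 0.0281 in edgeR's quasi-likelihood test, and it did not pass after Benjamini-Hochberg adjustment over all genes (adjusted p = 0.9999, 2 wells a group); it is named after its values were seen. The log2 fold changes of Iglv2, -0.76 (SE 0.47), and of Iglv3, -0.12 (SE 0.33), did not pass either, and the estimate for Iglv3 was 0.21 without control 3.

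Lambda segments supplied 22.9% of light chain variable reads in control 2 (22.2 to 23.6), 35.2% in control 3 (34.3 to 36.1), 44.8% in agonist 2 (43.7 to 45.8) and 39.3% in agonist 3 (38.1 to 40.4). Counted on the constant regions the lambda share was 24.6%, 31.97%, 44.8% and 34.2% in the same order. Both measures were higher in each agonist well than in either control, by a wide margin in pool 2 and by 34.2% against 31.97% of constant reads in pool 3.

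Reads were concentrated on few segments. The effective number of segments (the inverse Simpson index, which is the number of equally used segments that would give the same concentration) was 6.49 in control 2, 14.2 in control 3, 14.8 in agonist 2 and 18.7 in agonist 3 for the heavy chain. For kappa it was 7.99, 21.5, 31.9 and 12.4, and for lambda 2.38, 2.33, 2.84 and 2.94. In the heavy chain and lambda the agonist wells were above both controls, while in kappa the groups overlapped, since agonist 3 lay between the controls. Over heavy chain segments with 100 or more reads the groups overlapped too, with 5.96 and 13.1 in controls and 12.6 and 15.1 with agonist. The heavy chain means were 10.3 ± 5.42 (SD, n = 2) in controls and 16.8 ± 2.75 (SD, n = 2) with agonist. With 2 wells against 2 the smallest two-sided exact permutation p is 0.333, so no measure over the segments was tested.

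It took 2 heavy chain segments to reach 50% of the reads in control 2, 6 in control 3, 8 in agonist 2 and 7 in agonist 3. For kappa it took 3, 8, 13 and 4. The 10 leading segments held 73.9%, 72.1%, 55.2% and 62.1% of heavy chain reads and 72.0%, 63.4%, 43.0% and 68.7% of kappa reads. Control 2 was the most concentrated well in both loci, and agonist 2, from the same pool, was the least concentrated in kappa.

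**Figure D2:**
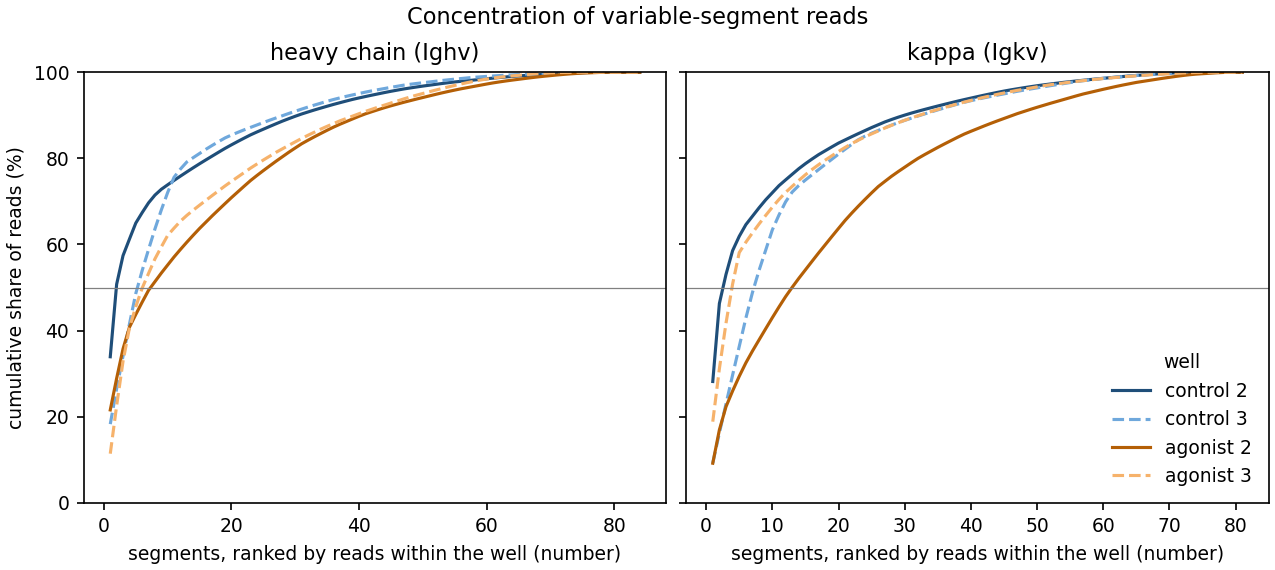
Cumulative share of reads (%) against the number of segments ranked by reads within each well, for the heavy chain (left) and kappa (right), with solid lines for pool 2, dashed lines for pool 3 and a grey line at 50%. Control 2 climbs fastest and crosses 50% at 2 heavy chain and 3 kappa segments, while agonist 2 crosses at 8 and 13.

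Few segments were prominent in every well. The 4 lists of 10 leading heavy chain segments together named 26 segments, of which 18 were in the list of 1 well only and 2, Ighv7-3 and Ighv1-26, were in all 4. For kappa they named 25, of which 16 were in 1 list and Igkv1-117 alone was in all 4. For the 21 T cell receptor beta segments (Trbv) with 20 or more reads in the same libraries, they named 14, of which 6 were in all 4 lists. Lists of 10 drawn from 21 segments must share more names than lists drawn from 84 or 81. For the 44 alpha segments (Trav) they named 22, of which 14 were in 1 list and 3 were in all 4, close to the heavy chain and kappa counts. Among the 168 members, 34 (20.2%) had 75% or more of their summed CPM in a single well, against 2.76% of all 20261 genes with 20 or more reads; the 75% limit was set after the values were seen. Of the 34, 14 had their high well in control 2, 9 in control 3, 6 in agonist 2 and 5 in agonist 3. The 14 held 52.6% of the members' reads in control 2. In agonist 2 the 6 held 5.31%. Among T cell receptor alpha and beta segments 1 of 65 (1.54%) was so uneven, although those segments had fewer reads (328 to 897 per well for Trav and 815 to 2392 for Trbv).

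Same-numbered wells were taken as divided from the same cells, which the labels do not state outright. Their overlap lay within the range seen between pools for the heavy chain and kappa. The overlap of shares (the sum over segments of the smaller of 2 wells' shares) was 43.6% in pool 2 and 36.8% in pool 3 for the heavy chain, and the 4 pairs of wells from different pools gave 27.7% to 51.3%. The highest of these, 51.3%, was between agonist 2 and agonist 3. For kappa the same-pool overlaps were 39.3% and 38.1% within a range of 36.5% to 48.2% between pools. Lambda overlaps were 70.0% to 93.5%, Trav overlaps 66.1% to 77.3% and Trbv overlaps 83.7% to 90.4%. The overlaps share wells and are given as a description. Likewise, the deviations of same-numbered wells from their group means correlated at r = 0.288 across 18297 tested genes and at 0.00643 across the 150 tested members, in both cases across genes, which are not independent.

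**Figure D3:**
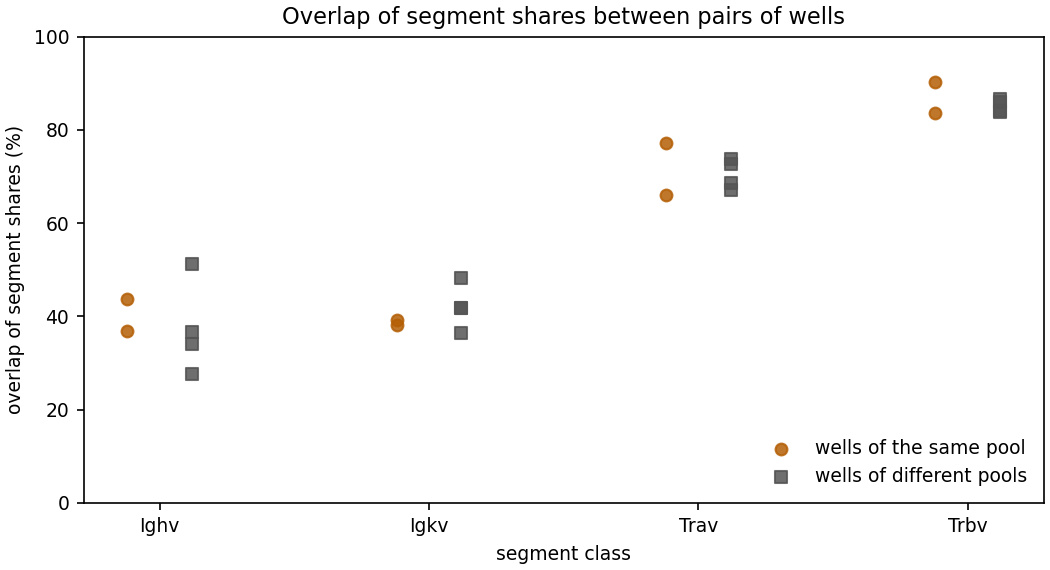
Overlap of segment shares (%) for each pair of wells, by class of segment, with circles for wells of the same pool and squares for wells of different pools. Ighv and Igkv pairs lie between 27.7% and 51.3% whether or not the wells share a pool, below the Trav pairs (66.1% to 77.3%) and the Trbv pairs (83.7% to 90.4%).

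The summed level of heavy chain segments was 277 CPM in control 2, 143 in control 3, 133 in agonist 2 and 66.9 in agonist 3. The summed kappa level was 233, 142, 96.2 and 78.4 CPM in the same order. The summed lambda level was 69.0, 77.3, 77.9 and 50.7 CPM. Heavy chain and kappa levels were therefore lower in both agonist wells than in either control, while for lambda the groups overlapped. Group means were 210.3 ± 94.98 and 99.8 ± 46.6 CPM for the heavy chain and 188 ± 63.8 and 87.3 ± 12.6 CPM for kappa in controls and agonist wells (SD, n = 2 each). Within same-numbered wells the agonist level was 0.479 of control in pool 2 and 0.467 in pool 3 for the heavy chain, 0.414 and 0.551 for kappa, and 1.13 and 0.655 for lambda. T cell receptor segments were lower in the same way, at 0.639 and 0.622 of control for Trav and 0.736 and 0.515 for Trbv. Of the 65 segments, 44 were lower in both pools and 3 were higher in both. Among the 20261 genes with 20 or more reads these shares were 27.2% and 21%. The part of lymphocyte content in these differences was not tested.

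Setting aside leading segments takes most from the most concentrated wells. It brought the ratio of agonist to control nearer to 1 in both pools for the heavy chain and in pool 2 for kappa, but not in pool 3 for kappa. When the 10 leading segments of each well were set aside, heavy chain levels were 72.5 and 40.0 CPM in controls and 59.4 and 25.3 in agonist wells, so that the groups overlapped and the ratios were 0.820 in pool 2 and 0.634 in pool 3. For kappa the corresponding levels were 65.1 and 52.1 against 54.8 and 24.6 CPM, with ratios of 0.842 and 0.471. The level of the median heavy chain segment was 0.861 and 0.412 CPM in controls and 0.644 and 0.335 CPM with agonist.

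**Figure D4:**
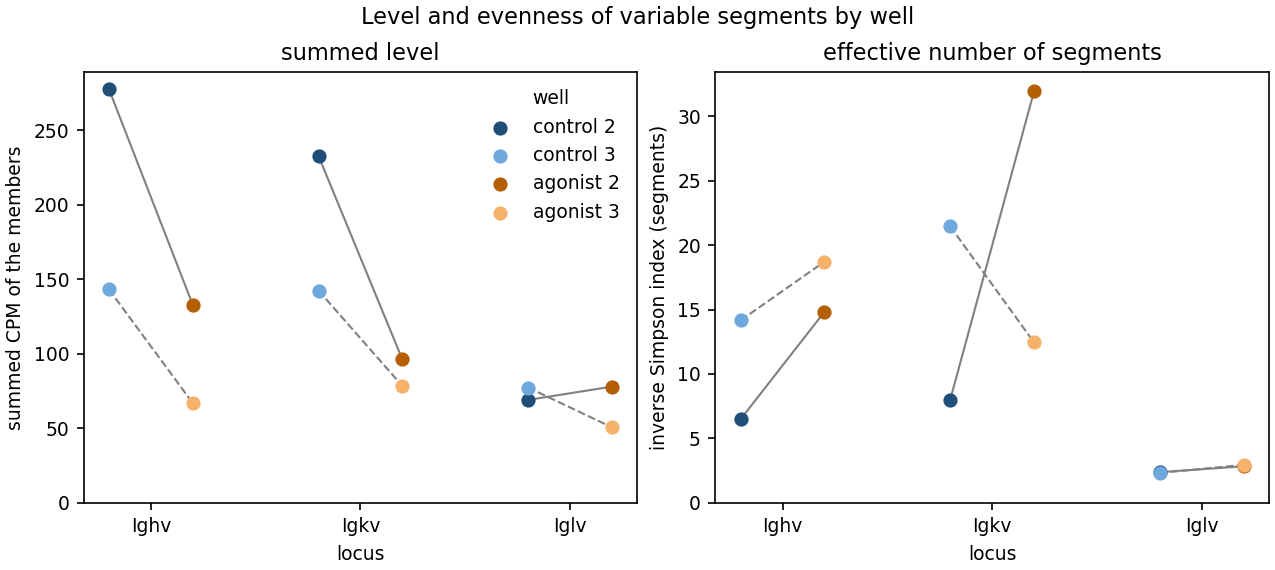
Summed CPM of the members (left) and effective number of segments (right) in each well by locus, with grey lines joining the control and agonist wells of pool 2 (solid) and pool 3 (dashed). The heavy chain and kappa sums slope down in both pools, from 277 to 133 CPM and from 143 to 66.9 CPM for the heavy chain, and the lambda sums do not share a direction.

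Tested one by one, no segment passed the test of agonist against control. A total of 150 members passed the filter on low counts (74 Ighv, 73 Igkv and 3 Iglv), and edgeR's quasi-likelihood test called 0 of them at an adjusted p under 0.05, as it called 0 of 18297 genes (0%). The 18 members left out had at most 438 reads, the highest being Ighv1-37. At an unadjusted p under 0.05, 15 of the 150 were lower with agonist (10%) and 4 were higher (2.67%), against 0.94% lower and 0.639% higher among all tested genes. The median log2 fold change of the tested members was -0.33, against -0.05 for all tested genes, and 98 were negative and 52 positive. Segments that passed the filter through 1 high well had to differ between wells, so these counts are a description.

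With the pool as a block the fit again called 0 members and 1 gene of 18297 (0.00547%). That gene was the constant region Igha. Other methods did call segments: DESeq2 called 6 members, all lower, where 0.0785% of its 15292 genes were called, and edgeR without a filter called 5 (4 lower, and Ighv1-37 higher) where 0.0315% of 28600 genes were called. DESeq2 with the block called 4 members (0.0245% of genes), as did edgeR with the block and no filter (0.0315% of genes). In each of these 2 fits 3 members were lower and 1, Ighv1-37, was higher. Igkv8-27 and Ighv1-12 were called by all 4 of these methods. Without control 3 the filtered edgeR fit called 2 members, Ighv5-9-1 and Igkv4-68 (0.0102% of 19677 genes), and without any other well it called 0.

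Igkv8-27 had the smallest unadjusted p. Its 2854 and 490 control reads and 99 and 54 agonist reads stood at -4.71 on the log2 scale (SE 0.99, adjusted p = 0.9999 with edgeR), and with the block -4.23 (SE 0.49, adjusted p = 0.118). Igkv19-93 followed, with 684 and 349 reads in controls and 120 and 85 with agonist. Its log2 fold change was -2.56 (SE 0.57), and -2.46 (SE 0.39) with the block. For both segments each control was above each agonist well. Without control 2 the log2 fold change was -2.72 for Igkv8-27 and -1.81 for Igkv19-93. Igkv19-93 was the sole member of its family read here.

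Ighv1-12 had 274 and 20 reads in controls and 2 in each agonist well, a log2 fold change of -6.41 (SE 1.54). Igkv5-39 had 75 and 443 against 28 and 16 reads, a log2 fold change of -3.63 (SE 0.91). Ighv9-1 had 57 and 615 against 26 and 27 reads, a log2 fold change of -3.74 (SE 1.05). In these 3 the groups did not overlap, but 1 control held most of the reads. The log2 fold change was -3.30 for Ighv1-12 without control 2, and -1.98 for Igkv5-39 and -1.34 for Ighv9-1 without control 3. Ighv1-19, with 93 and 565 against 53 and 21 reads, was alike in this, at a log2 fold change of -3.22 (SE 0.94) that was -1.53 without control 3.

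The segments with the highest positive fold changes were each high in 1 agonist well. Igkv8-30 had a log2 fold change of 3.60 (SE 1.33) that came from agonist 3 and was -0.05 without that well. Igkv4-55 had 20 and 19 reads in controls and 23 and 470 with agonist, with a log2 fold change of 3.40 (SE 1.28) that was 0.0996 without agonist 3. Ighv4-1 had 53 and 21 reads in controls and 507 and 18 with agonist, and its log2 fold change of 2.64 (SE 1.42) was -1.31 without agonist 2. Igkv4-57-1 had 10 and 10 against 183 and 2 reads, and its 3.06 (SE 1.68) on the log2 scale was -2.46 without agonist 2. Ighv9-3 was more even, with 163 and 123 reads in controls and 473 and 391 with agonist, so that the groups did not overlap. On the log2 scale agonist exceeded control by 1.39 (SE 0.45), with an unadjusted p = 0.0206 and an adjusted p = 0.9999 in edgeR; it is named after its values were seen.

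Other leading segments of control 2 had fold changes that rested on that well. Ighv5-9-1 had a log2 fold change of -6.24 (SE 2.13), which was 0.77 without control 2. Ighv1-82, which had 2035 reads in control 2, 45 in control 3, 345 in agonist 2 and 31 in agonist 3, had -2.73 (SE 1.73), which was 2.05 without control 2. Igkv4-68 had -5.97 (SE 1.84), which was -0.55 without control 2. None of the 3 passed the filtered edgeR test with all 4 wells, whereas edgeR without a filter called Ighv5-9-1 (adjusted p = 0.0146) and Igkv4-68 (adjusted p = 0.0108), both lower with agonist.

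Across the 168 members, 54 (32.1%) were lower with agonist in both pools and 22 (13.1%) were higher in both, against 27.2% and 21% of the 20261 genes with 20 or more reads. Both agonist wells lay below both controls in 28 members (16.7%) and above them in 8 (4.76%), against 13.5% and 11.8% of those genes. The share of lower members was thus close to the background, and the share of higher members was below it. Of the 28, 11 were heavy chain, 16 kappa and 1 lambda; of the 8, 7 were heavy chain, 0 kappa and 1 lambda. Among members with 100 or more reads, the log2 ratio of agonist over control in pool 2 correlated with that in pool 3 at r = -0.03 over 103 segments, against 0.0331 over 15205 genes. The spread of those ratios (SD) was 1.74 in pool 2 and 2.06 in pool 3 for the members and 0.816 and 0.611 for all genes, so the segments' ratios were wider within each pool and had no common order across pools. The read depth of the 2 sets was not matched.

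**Figure D5:**
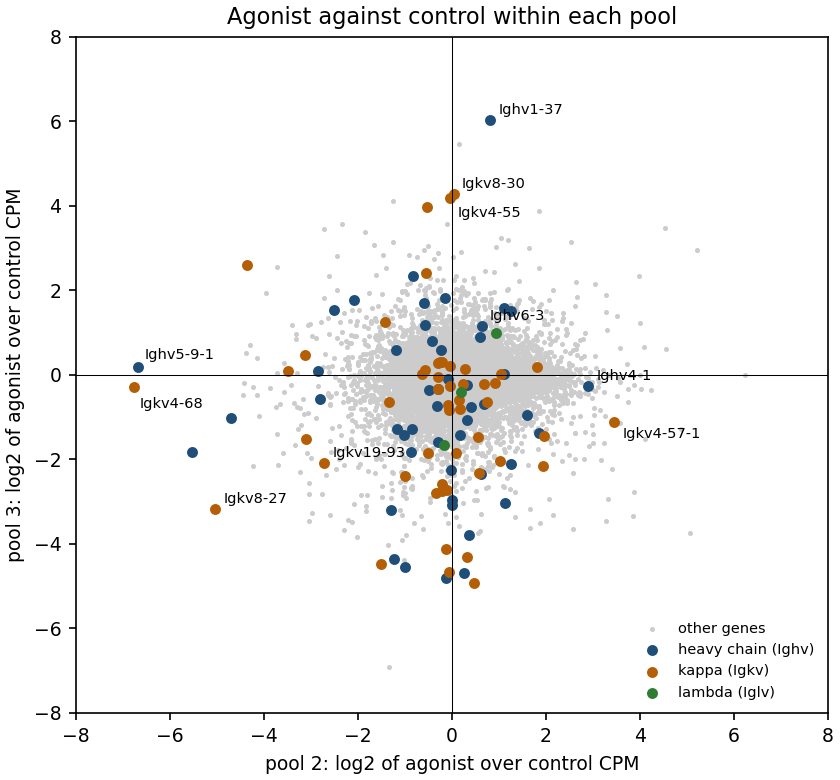
Log2 of the agonist over control CPM (pseudocount 0.1) in pool 3 against pool 2 for genes with 100 or more reads, with heavy chain, kappa and lambda segments coloured and all other genes in grey. The 103 segments spread wider than the other genes along both axes (SD 1.74 and 2.06 against 0.816 and 0.611), and several of the extreme segments, such as Ighv4-1 and Igkv8-30, were far from 0 in 1 pool only.

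The pools themselves differed in a few segments. With treatment in the model, edgeR called 72 of 18297 genes between pool 3 and pool 2 (0.394%), among them 3 members, all lower in pool 3. Ighv6-3, with the reads given above, had a log2 fold change between pools of -3.39 (SE 0.36, adjusted p = 0.0126). For Ighv1-82 it was -4.72 (SE 0.56, adjusted p = 0.0201). Igkv6-17 had 560 and 73 reads in pool 2 and 44 and 13 in pool 3, at -3.34 on the log2 scale (SE 0.54, adjusted p = 0.0426). DESeq2 called 9 members (3.91% of its 18065 genes), and edgeR with total-count scaling or a minimum count of 50 called 0. There was 1 pool in each arm, so the p-values speak for wells taken as divided from the same pool, and no spread between pools could be measured. Both pool 3 wells lay below both pool 2 wells in 69 members (41.1%) and above them in 11 (6.55%), against 24.4% and 23.4% of genes with 20 or more reads.

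Grouped by family (the number after the v), the shares of the largest heavy chain family held steady while its segments turned over. Ighv1, with 45 members, took 41.9%, 40.3%, 39.6% and 46.3% of heavy chain reads in control 2, control 3, agonist 2 and agonist 3. Its leaders were Ighv1-82 in control 2 and Ighv1-37 in agonist 3. The smaller families Ighv5, Ighv6 and Ighv7, each with a segment that led a well, were each highest in that well. Ighv5 took 37.2%, 9.15%, 6.47% and 7.36%, Ighv6 took 7.11%, 8.41%, 22.7% and 5.43%, and Ighv7 took 1.32%, 18.6%, 3.21% and 4.88%. In control 3, though, Ighv6 had 629 reads, most of them not from Ighv6-3. Among kappa families Igkv8, with 9 members, took 31.6%, 9.52%, 9.50% and 34.5%, through Igkv8-27 in control 2 and Igkv8-30 and Igkv8-21 in agonist 3. Igkv4, with 20 members, took 25.2%, 7.49%, 17.7% and 16.5%. In Ighv1 18 of 45 segments were lower with agonist in both pools and 4 were higher, and in Igkv4 6 of 20 were lower and 3 higher. Among all genes with 20 or more reads, 27.2% were lower and 21% were higher in both pools.

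The distribution of reads along each locus also varied. The heavy chain members were split into 3 equal groups by distance from the joining segments. The 28 nearest, 149 to 870.1 kb away, held 43.7%, 47.9%, 31.2% and 29.9% of reads in control 2, control 3, agonist 2 and agonist 3. The 28 farthest, 1625 to 2570.2 kb away, held 37.0%, 18.2%, 31.3% and 29.2%. Ighv5-9-1 lies in the nearest group and supplied 33.9% of all heavy chain reads of control 2, most of that group's share there. For kappa the nearest 27 held 44.8%, 30.9%, 29.1% and 41.9%.

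The constant regions are the part to which the variable exons are spliced. Whether their reads came from transcripts with a variable exon was not tested. Of the 14 genes on the list of constant regions and the J chain, 0 passed the filtered edgeR test without the block and 1, Igha, fell with it. Without a filter edgeR called Igha (adjusted p = 0.00251) and Ighg1 (adjusted p = 0.00261), and DESeq2 called Igha (adjusted p = 0.000149) and Jchain (adjusted p = 0.00669), all lower with agonist. Igha, the constant region of IgA, the main antibody of the gut, had 17171 and 8542 reads in controls and 2602 and 954 with agonist. Its log2 fold change was -3.06 (SE 0.66) without the block and -3.13 with it (adjusted p = 0.0140 with edgeR). Jchain, which links antibody units into dimers and pentamers, had 2913 and 5248 against 1126 and 1464 reads, at -1.82 on the log2 scale (SE 0.33, adjusted p = 0.9999 with edgeR). With the pool as a block Jchain was called by DESeq2 (adjusted p = 1.07e-05) and by edgeR without a filter (adjusted p = 0.00611). In both genes each agonist well was below each control, as in 5 of the 14 genes in all, and Ighg3 alone had the opposite order, against 13.5% and 11.8% of genes with 20 or more reads. The others with the lower order were Igkc, the kappa constant region, with 17236 and 10410 against 8247 and 6615 reads, Ighg1, with 85 and 2725 against 37 and 19 (most of them in control 3), and Iglc4, with 10 and 14 against 5 and 1. Ighg3, of an IgG class, had 1380 and 1825 reads in controls and 3823 and 2812 with agonist. Groups overlapped for Ighm, the constant region of IgM, with 41943 and 36417 against 44771 and 30579 reads, and for Ighg2b, with 10208 and 1927 against 2225 and 3828. Ighd, the constant region of IgD, had 8463 and 10473 reads in pool 2 and 3279 and 3717 in pool 3, and it was the 1 gene of the list called between pools, lower in pool 3 by a log2 value of -1.63 (SE 0.24, adjusted p = 0.0339 with edgeR).

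For every 100 reads on heavy chain constant regions there were 15.2 variable reads in control 2, 13.6 in control 3, 10.7 in agonist 2 and 8.92 in agonist 3, lower in both agonist wells. For kappa the numbers were 58.8, 71.4, 60.7 and 67.2 and for lambda 53.5, 82.6, 60.5 and 83.7, where the order followed the pool and not the treatment.

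Of the 14 joining segments, 12 passed the filter, 0 passed the test and 9 were lower with agonist in both pools. The share lower in both pools was 27.2% over all genes with 20 or more reads. Of the genes of V(D)J recombination and the surrogate light chain, 2 of 6 could be tested and 0 passed: Dntt, the polymerase that adds bases at the joins, had 857 and 587 reads in controls and 681 and 274 with agonist. Of 10 genes of somatic hypermutation and the germinal centre 0 passed. Of 12 genes of immunoglobulin transcription and secretion 0 passed.

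Marker levels moved in part with the segments. Summed plasma cell markers were 475, 460, 510 and 463 CPM in control 2, control 3, agonist 2 and agonist 3; of the 13 that could be tested 0 passed, 0 were lower in both pools and 5 were higher in both. In 3 of them, Sdc1, Fkbp11 and Txndc5, both agonist wells lay above both controls, as in 11.8% of the 20261 genes with 20 or more reads. Among those 20261 genes, 27.2% were lower and 21% were higher in both pools. Fkbp11 had few reads, 0 and 11 in controls and 12 and 27 with agonist. Most of that sum was Sec11c, a signal peptidase subunit with 285 to 309 CPM. Of the defining markers, Sdc1 (syndecan-1) had 29, 41, 90 and 53 reads, higher in both agonist wells. Tnfrsf17, the receptor BCMA of plasma cells and the 1 marker too low to test, had 10, 3, 0 and 0 reads and was lower in both pools. Summed B cell markers were 1057, 694, 993 and 601 CPM, with 10 of 14 lower in both pools and 0 past the test. Summed T cell markers were 1499, 883, 1185 and 731 CPM, with 13 of 14 lower in both pools and 0 past the test. The largest part of that sum was Il7r, with 507, 375, 488 and 401 CPM in the same order. Il7r was the marker of the 14 that was not lower in both pools. The B and T cell sums, the latter with Il7r included, were thus lower in each agonist well than in the control of its pool. These falls were smaller than those of the heavy chain segments. The part of B and T cell content in the segment differences was not tested.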

How the data were processed

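Per the submitters' processing notes, reads were handled with STAR 2.7 and HTSeq 0.11.1 on GRCm38 (mm10); no order or settings are stated for them. The authors deposited whole-number counts of reads per gene for each of the 4 wells, not normalized. The summary rows for reads without a gene were left out of library sizes. As a share of each library's gene reads plus summary-row reads, reads without a feature came to 15.96% to 19.99%. Ambiguous reads came to 5.77% to 6.50% of that sum, and reads aligned to several places to 6.54% to 6.98%. Reads of near-identical segments may be lost or assigned to the wrong segment by such counting, and antibody genes carry somatic mutations that the reference lacks. The effect was not tested.

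Counts were scaled with TMM and tested in R 4.3.3 with edgeR 4.0.16 (quasi-likelihood, filterByExpr with a minimum count of 10, Benjamini-Hochberg adjustment over all tested genes), with treatment as the only term; DESeq2 1.42.0 was an alternative. The SE of an edgeR log2 fold change was derived as its absolute value divided by the square root of the test's F statistic. The code was tested on simulated data. Same-numbered wells were taken as the same pool because the labels' protocol divides each sample into 2 wells. Their deviations from the group means correlated at 0.288 across genes, so the blocked fit is given where it changes a call. The labels number replicates without naming animals, so p-values measure the spread between these wells. Ratios within a pool used a pseudocount of 0.1 CPM. Exons, positions and identities came from GENCODE M21.

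The members, gene lists and tests were chosen with earlier results of these data known. Segments were named by rule: the 3 highest counts in a well for the heavy chain and kappa and the 2 highest for lambda; members past an edgeR test; the 6 smallest p-values; and the 4 highest positive fold changes among members with 100 or more reads. Other genes named were the constant regions and J chain. Leaders of a well, Iglv1, Ighv9-3, Ighv1-37 and the marker examples were named after their values were seen. Alternatives were other scaling, filters, DESeq2, the block, leaving out each well, thinning, and leaving out leading segments or pseudogenes; edgeR with the block and no filter was added after seeing the data.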

Additional observations from a re-analysis of the deposited data

How the results depend on the processing

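For agonist against control, 0 genes and 0 members passed with all wells. The replicate block gave 1 gene and 0 members. Genes and members numbered 9 and 5 with no filter, 12 and 6 in DESeq2, 7 and 4 in DESeq2 with the block, and 9 and 4 with the block and no filter. Leaving out each well in turn gave 0 to 2 genes and 0 to 2 members, the members only without control 3. No other edgeR setting run (other size factors, total counts, minimum count of 50) called a member. For pool 3 against pool 2 the 3 members became 0 with total counts or a minimum count of 50 and 9 in DESeq2; leaving out a well there leaves no residual degrees of freedom and was not run. In every such case the cause was not tested.

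Leaving out each well in turn turned the sign of 13 log2 fold changes, each lowest and highest without the wells named. Ighv1-82 ranged from -5.40 (without agonist 2) to 2.05 (control 2), Ighv5-9-1 from -7.15 (control 3) to 0.77 (control 2), Ighv6-3 from -1.55 (agonist 2) to 3.47 (control 2) and Ighv4-1 from -1.31 (agonist 2) to 3.63 (control 2). Igkv4-57-1 ranged from -2.46 (agonist 2) to 4.04 (agonist 3), Igkv8-30 from -0.048 (agonist 3) to 4.57 (agonist 2) and Iglv3 from -0.34 (control 2) to 0.21 (control 3). Among constant regions Ighm ranged from -0.59 (agonist 2) to 0.048 (agonist 3), Iglc3 from -0.95 (agonist 2) to 0.49 (agonist 3), Ighd from -0.94 (agonist 2) to 1.09 (control 2), Ighg2b from -2.02 (control 3) to 0.58 (control 2), Ighg2c from -0.086 (agonist 3) to 0.36 (agonist 2) and Ighe from -7.50 (agonist 2) to 0.25 (control 2). Iglc3 was also 0.019 with a minimum count of 50. With 1 well left in a group, that well is assumed to vary like the others.

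Leaving out the top segment of each well moved the effective number to 29.4 for the heavy chain in agonist 2, and to 1.90, 1.62, 2.00 and 1.96 for lambda in control 2, control 3, agonist 2 and agonist 3. A sum of 100 or more moved it to 15.1 for the heavy chain in agonist 3, and agonist 2 (12.6) then lay below control 3 (13.1). Without top segments the heavy chain overlap was 37.6% between control 2 and control 3 and 55.0% between control 2 and agonist 2. The kappa overlap was 47.9% between control 2 and agonist 2, 45.2% between control 2 and agonist 3, 43.2% between control 3 and agonist 3 and 47.2% between agonist 2 and agonist 3. Thinning to equal reads and total-count scaling moved no effective number or summed level beyond the spread between wells. Segments with few reads were limited by depth.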
